A study of Mus musculus with 2 samples.

Results

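Matrix metalloproteinases, adamalysins and their inhibitors were described in a pair of mouse cell lines that differ in the huntingtin gene. Members were the genes whose symbols name a matrix metalloproteinase (Mmp), a tissue inhibitor of metalloproteinases (Timp), an ADAM protein (Adam), an ADAMTS protein (Adamts) or an ADAMTS-like protein (Adamtsl). There were 83 members among the 23176 genes of the table, with 23 Mmp, 4 Timp, 32 Adam, 19 Adamts and 5 Adamtsl genes. The STHdhQ111 line has the genotype HdhQ111/Q111, with an expanded CAG tract in both copies of huntingtin, and the STHdhQ7 line has the genotype HdhQ7/Q7, with a tract of normal length. Both lines were derived from embryonic day 14 striatum of mice of 129SvEv/CD1 background, were used below passage 15, were grown at 33 °C and were held at 39 °C for 2 days to stop division. Polyadenylated RNA was sequenced, and the titles name 3 replicates for each line, but the values are 1 combined FPKM for each line (fragments scaled to transcript length and to the number mapped, a scale that allows levels of different genes to be set side by side).

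These proteases act outside the cell or at its surface and use a zinc ion to cut proteins. Matrix metalloproteinases degrade collagens, proteoglycans and other matrix proteins, ADAM proteins release growth factors and receptors from the membrane, and ADAMTS proteins trim procollagens and cut large proteoglycans. Most are made as inactive precursors, Timp proteins block the active forms, and in the brain the families take part in cell migration, synapse remodelling and the breakdown of the blood-brain barrier.

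No replicate spread can be given, since each line has 1 combined value, and with 1 line of each genotype, an effect of genotype and a difference between lines cannot be told apart. A gene is referred to as called where the authors' q was 0.05 or less, and the standard error given with a log2 fold change is the one that the fold change and statistic of the authors' deposited table imply. The depth of the libraries is unknown. Htt itself was listed at 2.83 FPKM in STHdhQ111 and 3.91 FPKM in STHdhQ7 and was not called. The medium spiny neuron markers Drd1a (0 FPKM in both lines), Ppp1r1b (0.0698 FPKM in STHdhQ111 and 0.136 FPKM in STHdhQ7) and Bcl11b (0.0610 FPKM in STHdhQ111 and 0.0648 FPKM in STHdhQ7) were near absent in both lines, as was Drd2 (0.0221 FPKM in STHdhQ111 and 0 FPKM in STHdhQ7). Penk, the other marker on that list of 5, was at 6.49 FPKM in STHdhQ111 and 2.85 FPKM in STHdhQ7 and was not called. Of the 4 listed markers of neurons in general, 3 were also under 0.5 FPKM in both lines. What these levels mean for the striatal origin of the lines was not tested. The fibroblast and mural markers summed to 2399 FPKM in STHdhQ111 and 858.3 FPKM in STHdhQ7. Most of the distance between these sums lay in Col1a1 (1487 FPKM in STHdhQ111 and 451.9 FPKM in STHdhQ7) and Col1a2 (532.6 FPKM in STHdhQ111 and 11.5 FPKM in STHdhQ7). Of the 6 tested markers on that list 4 had a log2 ratio above 0 and 2, Postn and Acta2, one below 0.

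Members of these families were called in both directions. The abundant gelatinase and membrane-type proteases Mmp2, Mmp14 and Mmp15 rose in STHdhQ111, as did Adam8, Adam19, Adamts1 and Adamts14. The secreted proteases Mmp3, Mmp10, Mmp12 and Mmp13 fell to near absence, and Mmp16, Mmp25, Adam22, Adamts9, Adamts12, Adamtsl1, Adamtsl2 and Adamtsl3 also fell. The 3 tested Timp genes were not called. Of the 83 members, 40 had a test and 19 of these were called, 47.5%, beside 13.5% of all 12740 tested genes. Of the tested members 7 were called higher, 17.5% beside 6.35% of all tested genes, and 12 were called lower, 30.0% beside 7.17%. Among the 32 members with a mean of 1 FPKM or more 13 were called, 40.6% beside 12.6% of the 11534 tested genes at that level. Of these, Mmp3, Mmp10, Adamts12, Adamtsl2 and Adamtsl3 were at 0.336 FPKM or less in STHdhQ111. They reached that mean through STHdhQ7, which favoured a lower call in this subset too. The calls of Adam22, Mmp12, Mmp13, Mmp14, Mmp16 and Mmp25 were lost under the stricter Benjamini-Yekutieli adjustment.

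The fold changes were unequal between the directions. The median log2 ratio of (FPKM + 0.5) was 0.14 over the tested members and -0.05 over all tested genes, and the median size of that ratio regardless of sign was 0.86 over the members and 0.36 over all tested genes. Ratios above 0 were found in 21 tested members and ratios below 0 in 19. Of the called members 8 were at least 10-fold lower and none was at least 10-fold higher. The same counts were not taken over all tested genes, so these have no background beside them. Of the 12 called lower, 11 were under 0.5 FPKM in STHdhQ111 and 5 were under 0.1 FPKM. These members thus had a test through their level in STHdhQ7, which favoured a lower call. Adam12 (0.189 FPKM in STHdhQ111 and 0.588 FPKM in STHdhQ7) was also under 0.5 FPKM in STHdhQ111 and was not called. The 7 called higher were all at 2.35 FPKM or more in STHdhQ111, and 1 of them was under 0.5 FPKM in STHdhQ7.

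**Figure D1:**
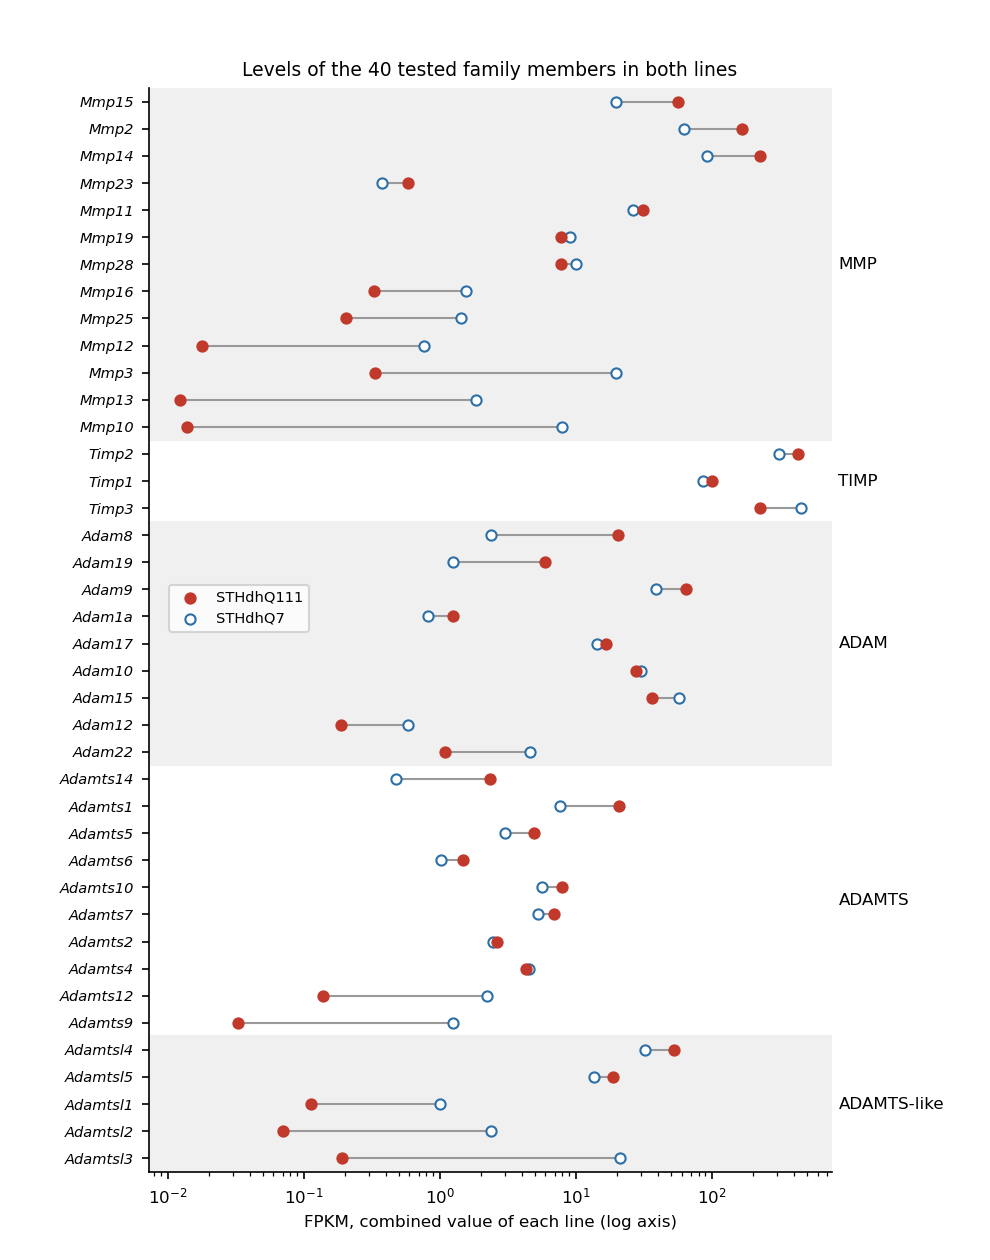
FPKM of the 40 tested members in STHdhQ111 (filled) and STHdhQ7 (open), on a log axis, grouped by family and ordered by fold change within each family. Mmp3, Mmp10, Mmp12, Mmp13, Adamts9, Adamts12, Adamtsl2 and Adamtsl3 lie at 0.336 FPKM or less in STHdhQ111 and between 0.768 and 21.3 FPKM in STHdhQ7, while Timp1, Timp2 and Timp3 lie at 86.8 FPKM or more in both lines.

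Among the matrix metalloproteinases, 13 of 23 had a test, and 3 of these were called higher, 6 called lower and 4 not called. This was 23.1% higher and 46.2% lower, beside 6.35% higher and 7.17% lower of all tested genes. The 6 called lower were at 0.336 FPKM or less in STHdhQ111. They thus had a test through their level in STHdhQ7, which favoured a lower call. The median log2 ratio of the 13 tested matrix metalloproteinases was -0.34, beside -0.05 over all tested genes. Mmp14, the membrane-anchored protease that activates the Mmp2 precursor and cuts fibrillar collagen (chromosome 14, 55050441 to 55060095, mm9), was the most abundant of them in both lines, at 225.9 FPKM in STHdhQ111 and 91.6 FPKM in STHdhQ7. This was a log2 fold change of 1.30 (implied standard error 0.40, q = 0.0115 in the authors' deposited table). Mmp2, gelatinase A, which degrades denatured collagen and basement membrane (chromosome 8, 95351227 to 95377319), was at 166.3 FPKM in STHdhQ111 and 62.2 FPKM in STHdhQ7. In the authors' deposited table Mmp2 had a log2 fold change of 1.42 (implied standard error 0.39, q = 0.00382). Mmp15, a membrane-type relative of Mmp14 (chromosome 8, 97876237 to 97898193), was at 56.6 FPKM in STHdhQ111 and 19.6 FPKM in STHdhQ7, 2.88-fold higher (log2 fold change 1.53, implied standard error 0.40, q = 0.00167 in the authors' deposited table). The most abundant protease, its target and its relative thus were each between 2.47-fold and 2.88-fold higher in STHdhQ111.

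The other tested membrane-type genes moved the opposite way at much lower levels. Mmp16, another transmembrane member known to activate Mmp2 (chromosome 4, 17780629 to 18045881), was at 0.331 FPKM in STHdhQ111 and 1.56 FPKM in STHdhQ7. This was a log2 fold change of -2.24 (implied standard error 0.70, q = 0.0133 in the authors' deposited table). Mmp25, a lipid-anchored protease first described in leukocytes (chromosome 17, 23766425 to 23782236), was at 0.206 FPKM in STHdhQ111 and 1.44 FPKM in STHdhQ7, with a log2 fold change of -2.81 and an implied standard error of 0.83 (q = 0.00784 in the authors' deposited table). Mmp17 (0.132 FPKM in STHdhQ111 and 0.152 FPKM in STHdhQ7) and Mmp24 (0.0743 FPKM in STHdhQ111 and 0.0335 FPKM in STHdhQ7) had no test. All 4 tested membrane-type genes were therefore called, 2 in each direction, beside 13.5% of all tested genes. The 2 that rose were at 19.6 FPKM or more in both lines. Mmp16 and Mmp25 had a test through their level in STHdhQ7, which favoured a lower call. The calls of Mmp14, Mmp16 and Mmp25 were lost under the Benjamini-Yekutieli adjustment.

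Mmp3, stromelysin 1, which cuts proteoglycans and laminin and activates other precursors (chromosome 9, 7445822 to 7455974), fell to 0.336 FPKM in STHdhQ111, against 19.8 FPKM in STHdhQ7, 59.0-fold lower. In the authors' deposited table Mmp3 had a log2 fold change of -5.88 (implied standard error 0.86, q = 4.58e-10). Mmp10, stromelysin 2 (chromosome 9, 7502360 to 7510240), fell to 0.0139 FPKM in STHdhQ111, against 7.94 FPKM in STHdhQ7. With so low a level in STHdhQ111 the size of the Mmp10 change is loosely set, with a log2 fold change of -9.16 and an implied standard error of 2.55 in the authors' deposited table (the authors' q = 0.00399) and a log2 ratio of -3.14 with 1 FPKM added to each line. Mmp13, the main interstitial collagenase of rodents (chromosome 9, 7272514 to 7283333), was at 0.0122 FPKM in STHdhQ111 and 1.84 FPKM in STHdhQ7 (log2 fold change -7.23, implied standard error 2.62, q = 0.0444 in the authors' deposited table). Mmp12, the elastin-degrading protease of macrophages (chromosome 9, 7347374 to 7360461), was at 0.0178 FPKM in STHdhQ111 and 0.768 FPKM in STHdhQ7 (log2 fold change -5.43, implied standard error 1.55, q = 0.00540 in the authors' deposited table). With 1 FPKM added to each line the log2 ratio was -3.96 for Mmp3, -1.49 for Mmp13 and -0.80 for Mmp12.

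These 4 genes are neighbours. The table lists 10 Mmp genes between 7272514 and 7699416 on chromosome 9, with no other listed gene among them, in the order Mmp13, Mmp12, Mmp1b, Mmp3, Mmp1a, Mmp10, Mmp8, Mmp27, Mmp20 and Mmp7. The 4 that had a test were all called lower in STHdhQ111, beside 7.17% of all tested genes. These 4 were at 0.336 FPKM or less in STHdhQ111, so they had a test through their level in STHdhQ7, which favoured a lower call. The other 6 had no test, with at most 0.00890 FPKM in STHdhQ111 and 0.0801 FPKM in STHdhQ7. The highest of these 6 was Mmp8, the neutrophil collagenase, at 0 FPKM in STHdhQ111 and 0.0801 FPKM in STHdhQ7. The nearest genes on each side were not called. Dcun1d5, the nearest on one side, was at 15.9 FPKM in STHdhQ111 and 14.6 FPKM in STHdhQ7, and Tmem123, the nearest on the other, at 18.1 FPKM in STHdhQ111 and 18.3 FPKM in STHdhQ7. Farther out, Pdgfd, a platelet-derived growth factor, was called lower, listed at 0 in STHdhQ111 and at 0.713 FPKM in STHdhQ7. Birc3, an inhibitor of apoptosis 576.2 kb from the start of Mmp13, was called higher, at 3.25 FPKM in STHdhQ111 and 0.233 FPKM in STHdhQ7. The difference between the cluster and its neighbours was not tested.

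**Figure D2:**
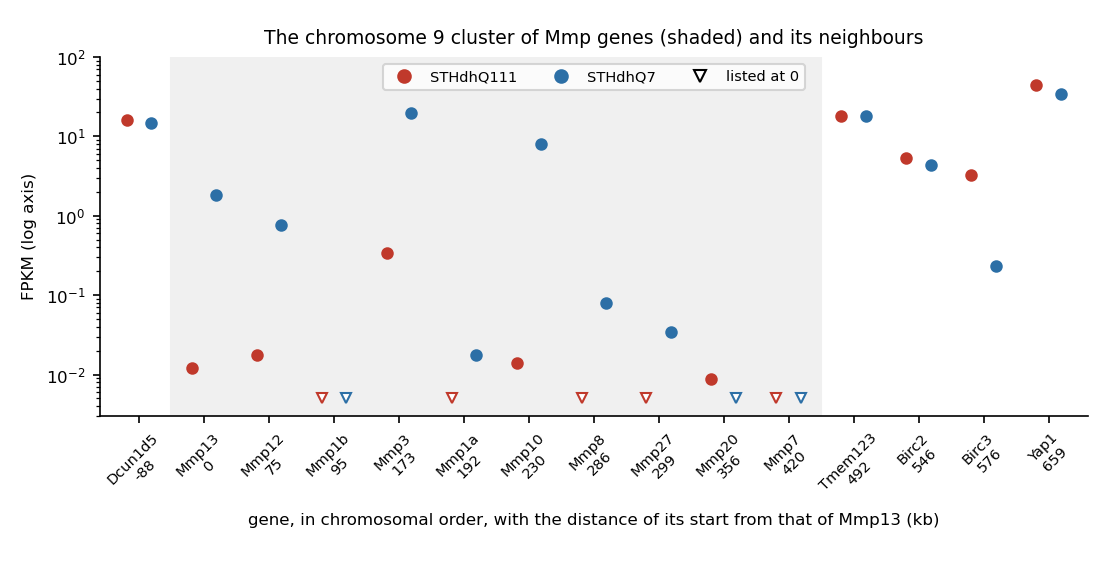
FPKM (log axis) of the 10 Mmp genes of the chromosome 9 cluster (shaded) and of Dcun1d5, Tmem123, Birc2, Birc3 and Yap1 beside it, in STHdhQ111 (left point of each gene) and STHdhQ7 (right point), in chromosomal order with the distance from the start of Mmp13 in kb. Triangles stand for a gene listed at 0. Mmp3 and Mmp10 reach 19.8 and 7.94 FPKM in STHdhQ7, and no gene of the cluster is above 0.336 FPKM in STHdhQ111.

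The 100 bases before the listed start are printed for the 4 genes that fell together, and for Mmp14 and Mmp15, which rose, as a contrast. They are from RefSeq on GRCm38.p6, plus strand, in lower case, with matches to the AP-1 motif TGANTCA and to the TATA motif TATAAA in capitals. The loci of the members are on mm9, another build. The stretches of Mmp3, Mmp12 and Mmp13 end just before the mm9 starts, while those of Mmp14 and Mmp15 lie at other coordinates. Of the 2 listed starts of Mmp12 the more downstream one is shown.
Mmp3, chr9:7445722-7445821: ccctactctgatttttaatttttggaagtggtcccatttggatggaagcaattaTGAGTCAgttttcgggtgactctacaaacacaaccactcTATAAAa
Mmp10, chr9:7502242-7502341: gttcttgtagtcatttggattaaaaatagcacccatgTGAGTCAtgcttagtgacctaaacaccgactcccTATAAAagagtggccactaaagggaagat
Mmp12, chr9:7347274-7347373: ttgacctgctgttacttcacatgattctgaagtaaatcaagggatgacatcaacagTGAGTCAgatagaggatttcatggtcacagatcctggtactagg
Mmp13, chr9:7272414-7272513: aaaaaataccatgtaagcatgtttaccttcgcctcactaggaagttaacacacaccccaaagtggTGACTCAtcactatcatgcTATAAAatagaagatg
Mmp14, chr14:54431498-54431597: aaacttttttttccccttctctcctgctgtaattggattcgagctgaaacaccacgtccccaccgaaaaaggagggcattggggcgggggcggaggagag
Mmp15, chr8:95352196-95352295: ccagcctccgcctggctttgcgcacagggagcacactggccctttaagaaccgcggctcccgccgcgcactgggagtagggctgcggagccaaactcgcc

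The 4 printed stretches of the genes that fell hold an AP-1 match, 46 bases before the start in Mmp3 (-46), at -63 in Mmp10, at -44 in Mmp12 and at -35 in Mmp13, counted to the first base of the match. The stretch before the other listed start of Mmp12 holds no match to either motif. In Mmp3, Mmp10 and Mmp13 a TATA match follows it, at -7 in Mmp3, at -29 in Mmp10 and at -16 in Mmp13, and the stretches of Mmp14 and Mmp15 hold neither motif. Of the 32851 RefSeq stretches of 100 bases before a start, 2.73% hold TGANTCA (which reads the same on both strands), 5.56% hold TATAAA on either strand and 0.234% hold both, and the motifs do not overlap in the stretches printed. A start was listed for 52 of the 83 members, and 9 of these had an AP-1 match, 10 a TATA match and 7 both. All 7 with both lie in the chromosome 9 cluster, where 8 of the 10 genes had an AP-1 match. They include Mmp1a, Mmp1b, Mmp7 and Mmp20, which had no test and were at 0.0178 FPKM or less in both lines, so the match was found in silent genes too. An AP-1 match was found in 4 of the 10 members with a listed start that were called lower, all 4 in the cluster, and in none of the 6 called higher or the 13 not called. Adam22, Adamts9, Adamts12, Adamtsl2, Adamtsl3 and Mmp25 were called lower and had none. Among untested members 5 of 23 had one. A match is a run of letters and was not tested as a binding site.

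**Figure D3:**
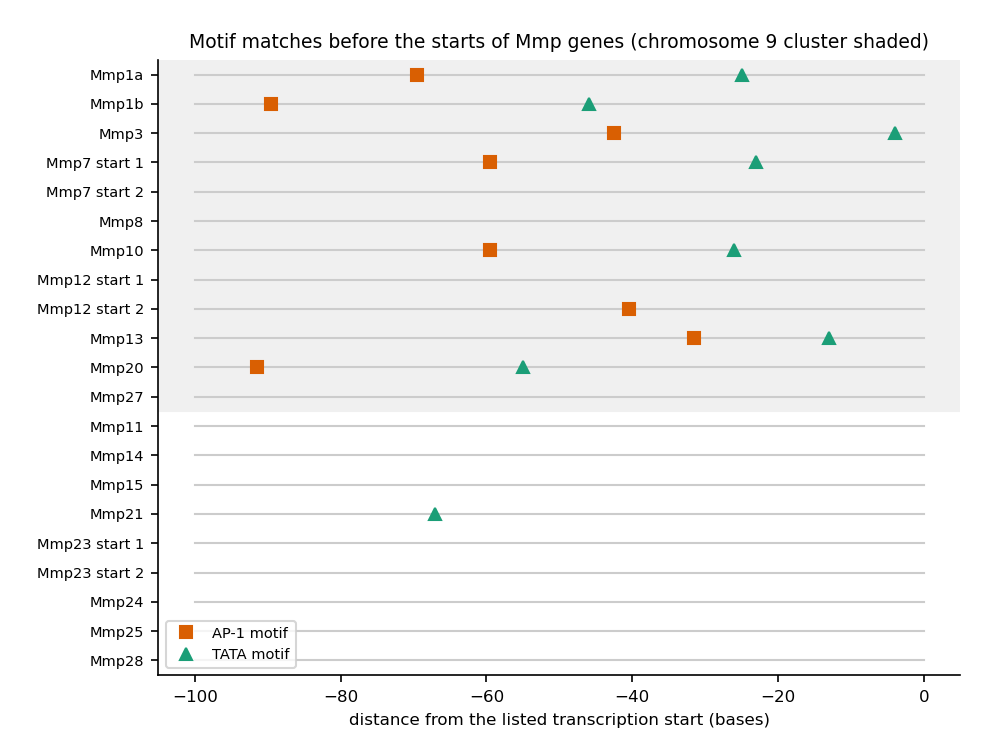
Positions of AP-1 (squares) and TATA (triangles) motif matches in the 100 bases before each listed start of the Mmp genes, with the start at 0 and the chromosome 9 cluster shaded. Of the 10 cluster genes 8 carry an AP-1 match, and outside the cluster Mmp21 alone among these Mmp genes carries a TATA match.

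The remaining tested matrix metalloproteinases were not called. Mmp11, stromelysin 3, was at 31.4 FPKM in STHdhQ111 and 26.3 FPKM in STHdhQ7, which placed it after Mmp14 and Mmp2 as the next most abundant Mmp gene in STHdhQ7. Mmp19 was at 7.82 FPKM in STHdhQ111 and 9.04 FPKM in STHdhQ7, Mmp28 (epilysin) at 7.76 FPKM in STHdhQ111 and 9.98 FPKM in STHdhQ7, and Mmp23 at 0.584 FPKM in STHdhQ111 and 0.379 FPKM in STHdhQ7. Their implied standard errors of the log2 fold change were between 0.39 and 0.93 in the authors' deposited table. Mmp9, gelatinase B, had no test and was at 0.199 FPKM in STHdhQ111 and 0.146 FPKM in STHdhQ7, so Mmp2 was the only gelatinase at a level above 0.2 FPKM. The collagenase Mmp1b was listed at 0 in both lines, and Mmp1a at 0 in STHdhQ111 and 0.0178 FPKM in STHdhQ7.

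The inhibitors were among the most abundant members in both lines. Timp2, which inhibits Mmp2 and also bridges its precursor to Mmp14, was at 433.0 FPKM in STHdhQ111 and 313.6 FPKM in STHdhQ7. Timp3, which is bound to the matrix and inhibits Adam17 and aggrecan-cutting ADAMTS proteins as well, was at 228.2 FPKM in STHdhQ111 and 450.1 FPKM in STHdhQ7. Timp1 was at 101.0 FPKM in STHdhQ111 and 86.8 FPKM in STHdhQ7, and Timp4 had no test, at 0.0131 FPKM in STHdhQ111 and 0.0455 FPKM in STHdhQ7. No Timp gene was called, beside 13.5% of all tested genes, and 3 tested genes are too few to compare with that share. The median log2 ratio of the 3 tested was 0.22 and the mean was -0.098. The authors' deposited table gave Timp3 a log2 fold change of -0.98 (implied standard error 0.46, p = 0.0317, q = 0.168), Timp2 one of 0.47 (implied standard error 0.46) and Timp1 one of 0.22 (implied standard error 0.54). Timp3 thus was listed first of the 3 in STHdhQ7 and second, after Timp2, in STHdhQ111.

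Timp1 and Timp3 lie inside synapsin genes on the opposite strand, and the library method is not described as marking strand. The table gives Timp1 the same locus as Syn1 and Araf, and Timp3 the same locus as Syn3. Syn1 was at 0.615 FPKM in STHdhQ111 and 1.22 FPKM in STHdhQ7, and Syn3 at 0.167 FPKM in STHdhQ111 and 0.322 FPKM in STHdhQ7. Araf was at 41.8 FPKM in STHdhQ111 and 32.5 FPKM in STHdhQ7, so reads that belong to Araf or Timp1 could bear on the Timp1 value. Timp2 shares its listed locus with BC100451, at 1.78 FPKM in STHdhQ111 and 0.587 FPKM in STHdhQ7, and Mmp19 shares one with Tmem198b, at 12.6 FPKM in STHdhQ111 and 15.3 FPKM in STHdhQ7.

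Set side by side, the summed FPKM of the 23 Mmp genes was 497.7 in STHdhQ111 and 252.9 in STHdhQ7, and that of the 4 Timp genes was 762.2 in STHdhQ111 and 850.5 in STHdhQ7. The Timp sum was 1.53 times the Mmp sum in STHdhQ111 and 3.36 times in STHdhQ7. Without Mmp14 and Timp2, the most abundant of each family by the mean of both lines, these ratios were 1.21 in STHdhQ111 and 3.33 in STHdhQ7. Without Mmp14 and Timp3, which led the Timp genes in STHdhQ7, they were 1.96 in STHdhQ111 and 2.48 in STHdhQ7, so the distance between the lines was smaller without Timp3. Mmp14, Mmp2 and Mmp15 made up 90.2% of the Mmp sum in STHdhQ111, and the first 3 in STHdhQ7, Mmp14, Mmp2 and Mmp11, made up 71.2%. Mmp3, Mmp10, Mmp12 and Mmp13 together held 0.0762% of the Mmp sum in STHdhQ111 and 11.99% in STHdhQ7. Words of 36 bases found in no other gene made up 87.7% of those of Mmp3 and 89.2% of those of Mmp10, so a part of their reads could have been shared with related genes. The sums describe RNA levels of 1 value for each line and have no test.

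**Figure D4:**
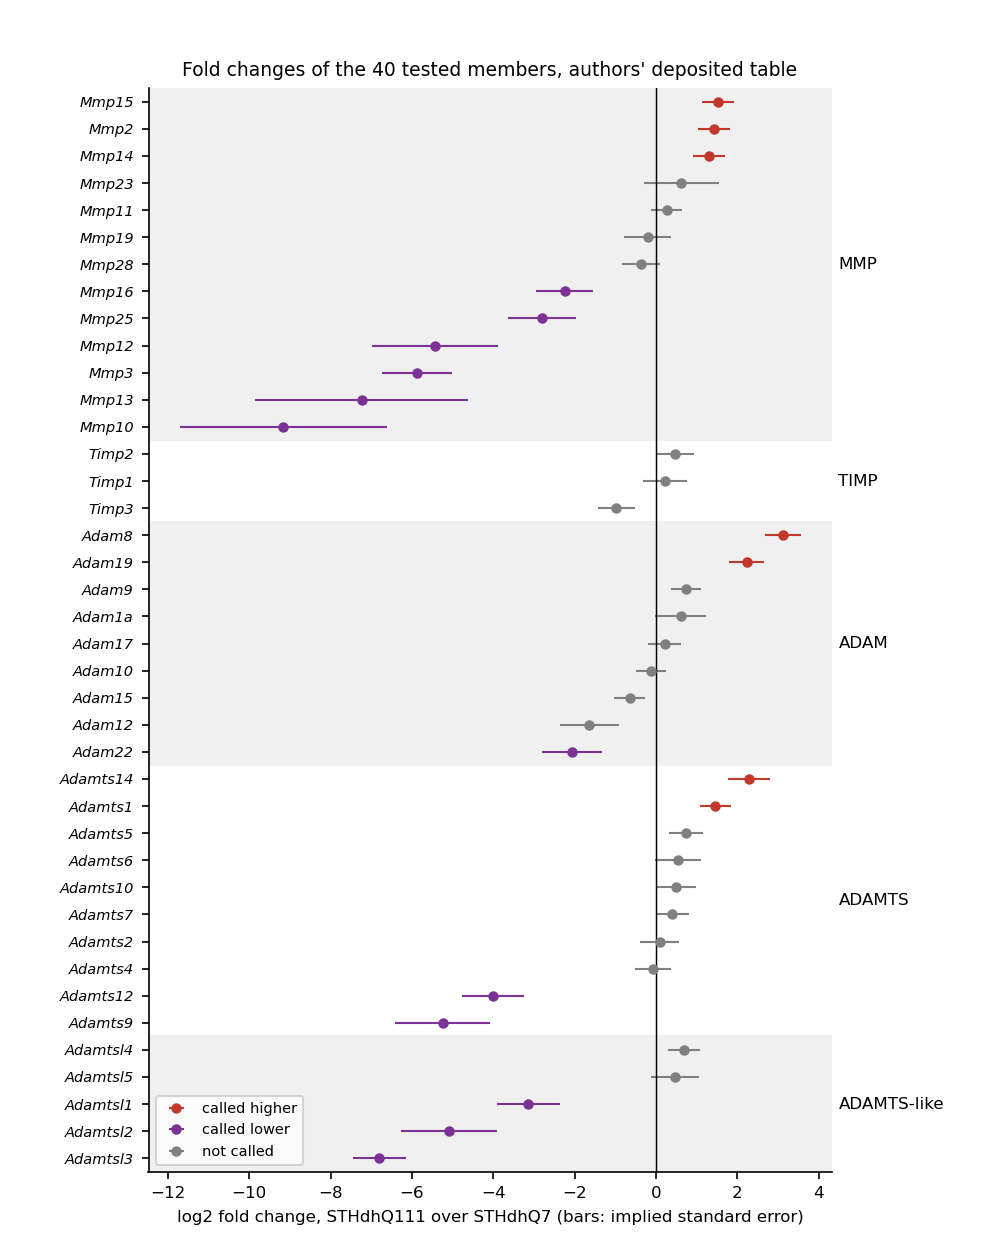
Log2 fold change, STHdhQ111 over STHdhQ7, of the 40 tested members in the authors' deposited table, with the implied standard error as bars and colours for called higher, called lower and not called. The fold changes of called members run from -9.16 (Mmp10) to 3.12 (Adam8), and the widest bars belong to Mmp13 and Mmp10.

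Among the ADAM genes, 9 of 32 had a test, and 2 were called higher, 1 lower and 6 not called, with a median log2 ratio of 0.21. This was 22.2% higher and 11.1% lower, beside 6.35% higher and 7.17% lower of all tested genes. The zinc-binding motif of an active protease was found in the reading frames of 19 ADAM genes and not in those of 13. Of the 19 with the motif 8 had a test, and of the 13 without it Adam22 was the only one that had. Adam8, a membrane protease of leukocytes and inflamed tissue (chromosome 7, 147164840 to 147178387), rose 8.69-fold, to 20.6 FPKM in STHdhQ111, against 2.37 FPKM in STHdhQ7, the largest gain of any tested member. In the authors' deposited table Adam8 had a log2 fold change of 3.12 (implied standard error 0.43, q = 3.63e-11). Adam19, which can release neuregulins (chromosome 11, 45869489 to 45960844), rose 4.68-fold, to 5.90 FPKM in STHdhQ111, against 1.26 FPKM in STHdhQ7 (log2 fold change 2.23, implied standard error 0.44, q = 9.72e-06 in the authors' deposited table). Adam22, a receptor for LGI proteins at synapses that has no protease activity (chromosome 5, 8072352 to 8368081), fell to 1.10 FPKM in STHdhQ111, against 4.63 FPKM in STHdhQ7. The log2 fold change of -2.07 (implied standard error 0.74 in the authors' deposited table) had a q of 0.0414, close to the threshold.

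The major sheddases showed no called change. Adam10, which cuts Notch receptors and the amyloid precursor protein, was at 27.8 FPKM in STHdhQ111 and 30.3 FPKM in STHdhQ7, and its log2 fold change of -0.13 in the authors' deposited table had the smallest implied standard error of the members, 0.37. Adam17, which releases TNF and EGF receptor ligands, was at 16.7 FPKM in STHdhQ111 and 14.4 FPKM in STHdhQ7, with a locus shared with Iah1 (10.4 FPKM in STHdhQ111 and 9.66 FPKM in STHdhQ7). Adam9 was the most abundant ADAM gene in STHdhQ111, at 65.1 FPKM against 39.0 FPKM in STHdhQ7, and Adam15 in STHdhQ7, at 36.6 FPKM in STHdhQ111 and 57.4 FPKM in STHdhQ7. Adam9 (the authors' p = 0.0471, q = 0.226) and Adam12, a protease of muscle and bone development at 0.189 FPKM in STHdhQ111 and 0.588 FPKM in STHdhQ7 (p = 0.0256, q = 0.144), were under 0.05 in the authors' deposited table before adjustment only, as was Timp3. Adam1a was at 1.25 FPKM in STHdhQ111 and 0.821 FPKM in STHdhQ7, but only 21.8% of its 36-base words occur in no other gene's transcripts, so its value is uncertain.

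The 23 ADAM genes without a test were all at 0.493 FPKM or less. The highest was Adam11, a relative of Adam22, at 0.493 FPKM in STHdhQ111 and 0.351 FPKM in STHdhQ7, and the other 22 were at 0.178 FPKM or less in both lines. Of the 12 ADAM genes on chromosome 8, most of which are known from testis, 8 were listed at 0 in both lines and Adam9 was the only one with a test. Over all families 43 members had no test, of which 15 were at 0 in both lines, 5 at 0 in STHdhQ111 alone, 3 at 0 in STHdhQ7 alone and 20 above 0 in both.

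Of the 19 ADAMTS genes 10 had a test, with 2 called higher and 2 lower and a median log2 ratio of 0.37. This was 20% in each direction, beside 6.35% higher and 7.17% lower of all tested genes. Adamts9 and Adamts12, the 2 called lower, had a test through their level in STHdhQ7, which favoured a lower call. Adamts1, which cuts versican and aggrecan (chromosome 16, 85794073 to 85803360), rose to 20.9 FPKM in STHdhQ111, against 7.61 FPKM in STHdhQ7 (log2 fold change 1.46, implied standard error 0.39, q = 0.00227 in the authors' deposited table). Its chromosomal neighbour and fellow aggrecan-cutting enzyme Adamts5 was at 4.97 FPKM in STHdhQ111 and 3.00 FPKM in STHdhQ7 and was not called, nor was Adamts4, at 4.34 FPKM in STHdhQ111 and 4.56 FPKM in STHdhQ7. Adamts9, a versican-cutting enzyme needed in development (chromosome 6, 92722693 to 92851435), fell to 0.0331 FPKM in STHdhQ111, against 1.26 FPKM in STHdhQ7. In the authors' deposited table Adamts9 had a log2 fold change of -5.25 (implied standard error 1.17, q = 0.000165), and the log2 ratio with 1 FPKM added to each line was -1.13. The proteoglycanases therefore included 1 gene called higher, 1 called lower and 2 not called, and Adamts8, Adamts15 and Adamts20 had no test.

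Adamts14, one of the enzymes that remove the amino-terminal propeptide of procollagens (chromosome 10, 60659860 to 60736186), rose 4.89-fold, to 2.35 FPKM in STHdhQ111, against 0.481 FPKM in STHdhQ7. This was a log2 fold change of 2.29 (implied standard error 0.52, q = 0.000199 in the authors' deposited table). Adamts2, the main enzyme of that group, was at 2.65 FPKM in STHdhQ111 and 2.48 FPKM in STHdhQ7 and was not called, and Adamts3 had no test, at 0.00245 FPKM in STHdhQ111 and 0.00266 FPKM in STHdhQ7. Adamts12, which cuts cartilage oligomeric matrix protein (chromosome 15, 10994545 to 11276622), fell to 0.138 FPKM in STHdhQ111, against 2.21 FPKM in STHdhQ7 (log2 fold change -4.004, implied standard error 0.76, q = 4.31e-06 in the authors' deposited table). Its closest relative Adamts7, which has the same known substrate, was at 6.96 FPKM in STHdhQ111 and 5.29 FPKM in STHdhQ7 and was not called. Adamts10, which binds fibrillin, was at 7.95 FPKM in STHdhQ111 and 5.63 FPKM in STHdhQ7, and Adamts6 at 1.48 FPKM in STHdhQ111 and 1.02 FPKM in STHdhQ7, and neither was called.

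The ADAMTS-like proteins share the binding domains of ADAMTS proteins but lack a protease domain, and several bind fibrillin microfibrils. All 5 had a test, 3 were called lower and 2 were not called, with a median log2 ratio of -1.29. This was 60% lower, beside 7.17% of all tested genes. The 3 called lower had a test through their level in STHdhQ7, which favoured a lower call. Adamtsl3, also named punctin 2 (chromosome 7, 89484204 to 89762958), fell to 0.191 FPKM in STHdhQ111, against 21.3 FPKM in STHdhQ7, 111.5-fold lower. In the authors' deposited table Adamtsl3 had a log2 fold change of -6.80 (implied standard error 0.65, q given as 0), and its log2 ratio with 1 FPKM added to each line was -4.23, the lowest of the members on that scale. Adamtsl2, which binds fibrillin 1 and a latent TGF-beta binding protein (chromosome 2, 26934901 to 26964133), was at 0.0708 FPKM in STHdhQ111 and 2.40 FPKM in STHdhQ7 (log2 fold change -5.09, implied standard error 1.19, q = 0.000342 in the authors' deposited table). Adamtsl1, punctin (chromosome 4, 85699819 to 86074286), was at 0.113 FPKM in STHdhQ111 and 1.002 FPKM in STHdhQ7 (log2 fold change -3.14, implied standard error 0.78, q = 0.000840 in the authors' deposited table). Adamtsl4, whose loss displaces the lens in patients, was at 52.8 FPKM in STHdhQ111 and 32.6 FPKM in STHdhQ7, and Adamtsl5 at 18.8 FPKM in STHdhQ111 and 13.6 FPKM in STHdhQ7. The family thus kept Adamtsl4 and Adamtsl5 above 13 FPKM in both lines, while the other 3 were under 0.2 FPKM in STHdhQ111.

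Genes that act on or with these families were read from further lists. In the plasminogen system and the proprotein convertases, which activate metalloproteinase precursors, 2 of 8 tested genes were called higher and none lower, beside 6.35% higher and 7.17% lower of all tested genes, with a median log2 ratio of 0.44 beside -0.05. Plau, urokinase, rose to 39.0 FPKM in STHdhQ111, against 15.97 FPKM in STHdhQ7, and the convertase Pcsk6 rose to 17.4 FPKM in STHdhQ111, against 6.38 FPKM in STHdhQ7. Furin, the convertase that activates Mmp14 and Mmp11, was at 25.4 FPKM in STHdhQ111 and 30.3 FPKM in STHdhQ7 and was not called, nor were the protease nexin Serpine2 (147.5 FPKM in STHdhQ111 and 208.9 FPKM in STHdhQ7) and the plasminogen activator Plat (115.9 FPKM in STHdhQ111 and 103.8 FPKM in STHdhQ7). Of the other inhibitors and clearance receptors, Lrp2 was called lower of 3 tested (median log2 ratio 0.15), at 0.0234 FPKM in STHdhQ111 and 1.10 FPKM in STHdhQ7. The membrane inhibitor Reck (3.30 FPKM in STHdhQ111 and 2.92 FPKM in STHdhQ7) and the clearance receptor Lrp1 (152.1 FPKM in STHdhQ111 and 108.7 FPKM in STHdhQ7) were not called. Of the astacin group, the procollagen enhancer Pcolce2 was called lower of 3 tested (median log2 ratio 0.51), at 1.37 FPKM in STHdhQ111 and 11.7 FPKM in STHdhQ7, and Pcolce (704.5 FPKM in STHdhQ111 and 495.96 FPKM in STHdhQ7) and Bmp1 (52.2 FPKM in STHdhQ111 and 27.4 FPKM in STHdhQ7) were not called.

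Among partners of the sheddases 1 gene was called in each direction, while Adam10 and Adam17 themselves were not called. Rhbdf2, an inactive rhomboid that carries Adam17 to the cell surface, rose to 16.3 FPKM in STHdhQ111, against 0.109 FPKM in STHdhQ7. In the authors' deposited table this is a log2 fold change of 7.23 (implied standard error 0.68, q given as 0). Its relative Rhbdf1 was at 20.7 FPKM in STHdhQ111 and 28.4 FPKM in STHdhQ7 and was not called. Tspan15, a tetraspanin that directs Adam10 towards N-cadherin, fell to 2.92 FPKM in STHdhQ111, against 21.3 FPKM in STHdhQ7 (log2 fold change -2.87, implied standard error 0.45, q = 7.63e-09 in the authors' deposited table). Tspan5, another Adam10 partner, was at 36.3 FPKM in STHdhQ111 and 39.8 FPKM in STHdhQ7, and Tspan14 at 12.7 FPKM in STHdhQ111 and 25.2 FPKM in STHdhQ7, and neither was called. The 7 tested partners had a median log2 ratio of -0.44, beside -0.05 over all tested genes. The 1 call in each direction was 14.3% of them, beside 6.35% higher and 7.17% lower of all tested genes.

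Of 14 tested genes for ligands and receptors that ADAM proteases shed, 7 were called lower and none higher, beside 7.17% lower and 6.35% higher of all tested genes, and the median log2 ratio was -0.98. Those called lower were the EGF receptor ligands Areg, Btc and Hbegf, the adhesion molecules Cdh2 and Cd44, the chemokine Cx3cl1 and the prion protein gene Prnp. Hbegf fell to 10.7 FPKM in STHdhQ111, against 33.8 FPKM in STHdhQ7, and Btc was at 0.0716 FPKM in STHdhQ111 and 0.910 FPKM in STHdhQ7. Cx3cl1 fell to 19.6 FPKM in STHdhQ111, against 79.5 FPKM in STHdhQ7, and Cdh2, N-cadherin, to 20.96 FPKM in STHdhQ111, against 68.1 FPKM in STHdhQ7. Areg, Cd44 and Prnp were at 2.40, 34.6 and 107.5 FPKM in STHdhQ111 and at 46.96, 94.5 and 255.1 FPKM in STHdhQ7. App, the amyloid precursor protein, was at 504.3 FPKM in STHdhQ111 and 225.1 FPKM in STHdhQ7 and was not called, with an implied standard error of 0.54 for a log2 fold change of 1.16 in the authors' deposited table. Notch1 (48.0 FPKM in STHdhQ111 and 55.2 FPKM in STHdhQ7) and Nrg1 (27.2 FPKM in STHdhQ111 and 34.4 FPKM in STHdhQ7) were not called either. Among substrates of ADAMTS proteins only Vcan, versican, had a test, at 14.7 FPKM in STHdhQ111 and 6.90 FPKM in STHdhQ7, and was not called. Among 6 tested inducer and partner proteins of these families, with 1 called higher, 2 lower and a median log2 ratio of -0.17, Fbn2, a fibrillin, was called higher at 25.8 FPKM in STHdhQ111 and 0.122 FPKM in STHdhQ7. Cd44, which anchors Mmp9 at the cell surface, is on this list too, and Thbs2 was called lower at 34.4 FPKM in STHdhQ111 and 101.2 FPKM in STHdhQ7. Thbs1 (369.1 FPKM in STHdhQ111 and 490.5 FPKM in STHdhQ7), Fbn1 (25.1 FPKM in STHdhQ111 and 23.98 FPKM in STHdhQ7) and Bsg, an inducer of Mmp genes (967.2 FPKM in STHdhQ111 and 457.1 FPKM in STHdhQ7), were not called.

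Markers of other cell types moved beside these genes. Of all tested genes 6.35% were called higher and 7.17% lower. Of the 4 tested neural progenitor markers 3 were called lower, along with the 12 members called lower. Nes was at 0.999 FPKM in STHdhQ111 and 35.99 FPKM in STHdhQ7, Sox2 at 0.561 FPKM in STHdhQ111 and 72.01 FPKM in STHdhQ7, and Pax6 at 0.0213 FPKM in STHdhQ111 and 14.9 FPKM in STHdhQ7. Vim, the other tested one, was at 2483 FPKM in STHdhQ111 and 3303 FPKM in STHdhQ7 and was not called, and Fabp7 had no test. The median log2 ratio of the 4 tested progenitor markers was -4.75. The sum over all 5 markers, most of it Vim in both lines, was 2484 FPKM in STHdhQ111 and 3426 FPKM in STHdhQ7. Their part in the results of the members was not tested. The neuron markers summed to 3.72 FPKM in STHdhQ111 and 2.47 FPKM in STHdhQ7, and the astrocyte markers to 14.3 FPKM in STHdhQ111 and 13.3 FPKM in STHdhQ7. Of the oligodendrocyte lineage markers Pdgfra was called higher, at 9.28 FPKM in STHdhQ111 and 3.34 FPKM in STHdhQ7. Mmp8, Mmp9, Mmp12, Mmp25 and Adam8 are known from leukocytes. Of the 6 leukocyte and microglia markers, 5 were under 0.5 FPKM in both lines, with Ptprc at 0.00334 FPKM in STHdhQ111 and 0.00360 FPKM in STHdhQ7, and Cd68 was called higher at 72.4 FPKM in STHdhQ111 and 26.5 FPKM in STHdhQ7. All 5 endothelial markers but Tek were under 0.5 FPKM in both lines. Tek was called higher, at 1.46 FPKM in STHdhQ111 and 0.386 FPKM in STHdhQ7. The 5 endothelial markers summed to 1.65 FPKM in STHdhQ111 and 0.447 FPKM in STHdhQ7. Of the 7 fibroblast and mural markers, 6 had a test, and Col1a1 and Col1a2 were called higher along with Mmp2 and Mmp14, while Postn was called lower. The part of fibroblast-type expression in the Mmp2 and Mmp14 results was not tested. Fewer cells of a type and less RNA for each cell cannot be told apart in such bulk samples.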

How the data were processed

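RNA of the STHdhQ111 and STHdhQ7 lines was sequenced from randomly primed cDNA of polyadenylated RNA, per the labels' protocols. The submitters' processing notes name the mm9 build, Bowtie 0.12.7, TopHat 1.4.0, Cufflinks 2.0.2 and Cuffdiff without a version. Their settings, the gene models and the scaling method were not given in the sources used here. Per the file headers, the deposited table has 1 FPKM by the authors for each line, and with it a log2 fold change, a test statistic, a p-value and a q-value for each gene. No test of the present work was possible on 1 value for each line, and no label states whether the replicates were separate cultures, so the spread behind the authors' p-values may be technical. The authors' p-value matched a two-sided normal tail of their statistic (largest difference 2.7e-06), and the deposited q-value matched the Benjamini-Hochberg adjustment over all 12740 tested genes to within 2.2e-06, so the size of the fold change (log2) over that of the statistic gives the implied standard error.

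The members and lists were chosen with earlier results of these data known, and the motifs, the stretches printed, the neighbours of the chromosome 9 cluster and the summed shares after values had been seen. Every tested member was named, with locus and fold change where called. Of each related list, called genes and up to 3 uncalled tested genes of highest mean FPKM were named. Other genes given with values, and the subset at a mean of 1 FPKM or more, were chosen after values had been seen. A list was described by its counts and by the median log2 ratio of (FPKM + 0.5) over its tested genes. Locus starts were raised by 1 to count from 1. The ADAM zinc motif (histidine and glutamate, 2 free positions, histidine, 2 free positions, glycine, 2 free positions, histidine) was searched in open reading frames of at least 200 residues of GENCODE M21 protein-coding transcripts, and 36-base words were compared with all GENCODE M21 transcripts on their own strand. The calling and adjustment steps were tested on simulated data. Python 3.11.15, numpy 2.4.6, pandas 2.3.3, scipy 1.17.1 and Biopython 1.88 were used.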

Additional observations from a re-analysis of the deposited data

How the results depend on the processing

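No paired analysis was possible because each line has 1 combined value, and for the same reason no replicate could be left out. The 19 calls among members became 15 at a q of 0.01, 13 under the Benjamini-Yekutieli adjustment and 19 after the median of expressed genes (-0.05) was subtracted or at a q of 0.1. The 12 calls of lower members became 7 under the Benjamini-Yekutieli adjustment, where Adam22, Mmp12, Mmp13, Mmp16 and Mmp25 were lost, and 6 when genes under a mean of 1 FPKM were left out before adjustment, a step that drops low genes by construction. The 7 calls of higher members became 3 with a log2 fold change of at least 2, where Adamts1, Mmp2, Mmp14 and Mmp15 were lost. Mmp14, Mmp16, Mmp13 and Adam22 were lost at a q of 0.01, and Mmp14 also under the Benjamini-Yekutieli adjustment. The median log2 ratio of tested members of 0.14 was 0.31 over members with a mean of 1 FPKM or more, 0 over every listed member and turned to -0.36 as a mean. Pseudocounts and recentring could not turn the sign of a called member by their construction. An alternative added after seeing the data, the sums without Mmp14 and Timp3, gave a Timp to Mmp ratio of 1.96 in STHdhQ111 and 2.48 in STHdhQ7. Depth is unknown, so how precisely values under 0.1 FPKM were measured is not known beyond the implied standard errors.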
